A study of Homo sapiens with 4 samples.

Results

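The genes described here encode the proteins of the human ribosomes, both the cytosolic ribosome and the ribosome of mitochondria, together with the paralogs of cytosolic subunits. They were chosen by symbol among the protein-coding genes of GENCODE release 29, which gave 165 of 19951 genes. Of these, 77 encode core subunits of the cytosolic ribosome (46 of the large and 31 of the small subunit), 10 are paralogs of core subunits and 78 encode subunits of the mitochondrial ribosome (49 large and 29 small). A gene was counted as listed when its identifier stood under any GO term in the deposited table of a comparison, so the listing itself was used to choose the genes that are named, and every count of listed genes below is a description without a test.

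The libraries came from HepG2 and Huh7, 2 established human liver cancer cell lines. HepG2 cells before treatment formed group A and HepG2 cells after treatment group B, and Huh7 cells before and after treatment formed groups C and D. The treatment was sonodynamic therapy (SDT), in which ultrasound activates the sensitiser hematoporphyrin monomethyl ether (HMME), carried here with lonidamine (LND), a drug that acts on tumour mitochondria, in nanobubbles. Sequencing was done on total RNA after removal of ribosomal RNA. Each of the 4 groups is a single library without replicates, and no value can be given a replicate error. Group A was untreated HepG2 and group C untreated Huh7, so nanobubbles, drugs and ultrasound cannot be told apart.

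The GO tables hold the names of those genes with a GO term that were called differentially expressed at an adjusted p-value under 0.05 and the number of genes under each GO term or KEGG pathway. They hold no level, fold change, direction or p-value for a gene. A listed gene may therefore have been higher or lower after SDT, a gene that is not listed may have missed the threshold, may not have been tested or may have no GO term in the tables, and the members just inside and just outside the threshold cannot be given. The depth of each library cannot be read from the tables. Of 8 hepatocyte markers, 3 were listed in HepG2 (ALB, AFP and HNF4A) and 6 in Huh7 (the same genes with APOA1, APOB and TTR). In HepG2 and Huh7, 2 and 1 of 4 fibroblast markers and 2 and 1 of 4 blood markers were listed. Of all protein-coding genes, 23.9% were listed in HepG2 and 21.9% in Huh7. Without levels, the labelled cell type could not be checked.

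As background, a cytosolic ribosome is built of a large and a small subunit, each made of ribosomal RNA and many proteins that are produced in near equal numbers, and cells adjust the production of these proteins together with growth. The mRNAs of most core subunits begin with a run of pyrimidines, the 5′ terminal oligopyrimidine motif, through which the mTOR pathway controls their translation. A few subunits have a paralog that takes the place of the common form in certain tissues. The mitochondrial ribosome is made of other proteins, encoded in the nucleus and imported, and it makes the subunits of the respiratory chain that mitochondrial DNA encodes.

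In HepG2 cells, 12 of the 165 genes were listed (7.27%), against 23.9% of all protein-coding genes. In Huh7 cells, 9 were listed (5.45%), against 21.9%. The 95% Wilson intervals of these shares reached from 4.21 to 12.3% in HepG2 and from 2.90% upward to about 10% in Huh7, and like all intervals given here they cover counting error only, treating genes as separate draws. RPL3L and MRPL53 were listed in both cell lines, which is 1.21% of the 165 genes, while 11.4% of protein-coding genes were listed in both. As a share of the genes listed in one cell line, these 2 were 16.7% of the 12 in HepG2 and 22.2% of the 9 in Huh7, against 47.7% and 52.2% for protein-coding genes. In all, 19 of the genes were listed in at least one cell line and 146 in neither.

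Of core subunits, paralogs and mitochondrial subunits, the core subunits of the cytosolic ribosome had the lowest share listed in both cell lines. Of 77, 2 were listed in HepG2 (2.60%, interval 0.715 to 8.98%), 1 in Huh7 (1.30%, lower bound 0.230%, upper bound 7%) and 0 in both, so 74 of 77 were in neither list. Of all protein-coding genes, 23.9% were listed in HepG2, 21.9% in Huh7 and 11.4% in both. RPLP1, an acidic protein of the stalk that recruits translation factors to the large subunit, was listed in HepG2, and no core large subunit gene was listed in Huh7 (1 and 0 of 46). Of 31 core small subunit genes, RPS19, needed for maturation of the small subunit and mutated in Diamond-Blackfan anaemia, was listed in HepG2, and RPS28 was listed in Huh7.

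**Figure D1:**
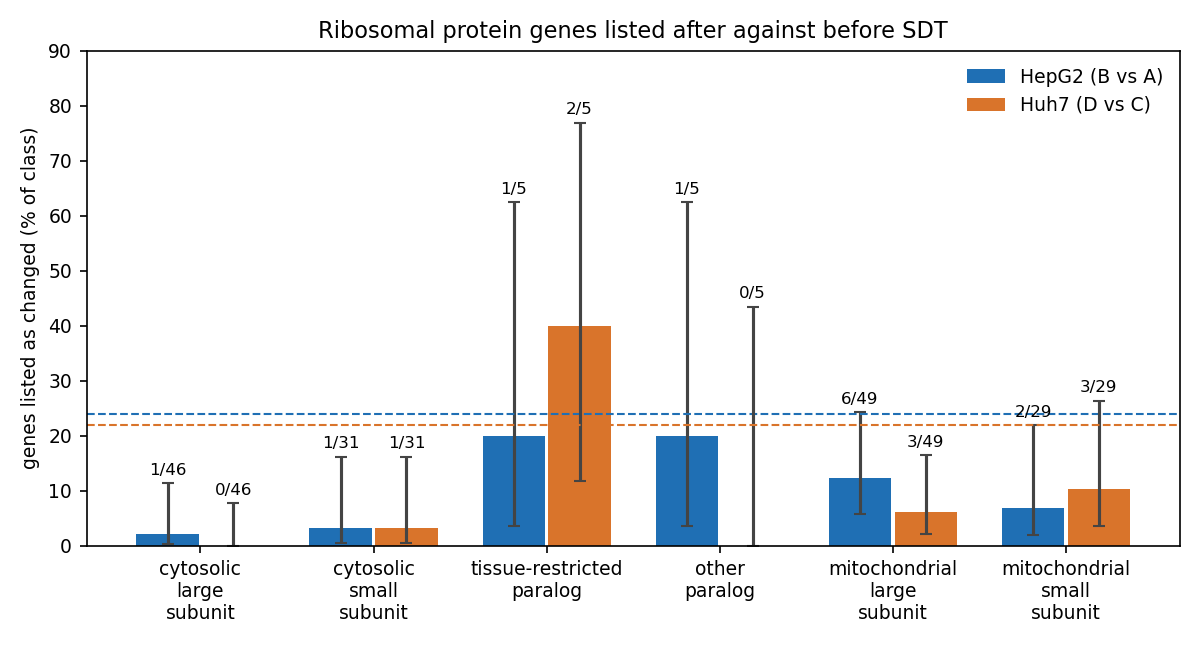
Bars give the percent of each class of ribosomal protein genes listed in HepG2 (B vs A) and Huh7 (D vs C), with 95% Wilson intervals, and the number listed of the number in the class stands above each bar. Dashed lines mark the 23.9% and 21.9% of protein-coding genes listed, and the bars of the core cytosolic subunits stay at or below 1 gene per class and cell line.

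The start sites of these 3 core genes are shown because the pyrimidine run at the start is the feature through which core subunit mRNAs are known to be controlled. Each sequence runs 5′ to 3′ on the strand of the gene from 40 bases before the RefSeq start to 20 bases after it (GRCh38.p14), and capitals mark the unbroken run of C and T that covers the start base or a base beside it. RPLP1 lies at chr15:69452778-69452837 on the plus strand, RPS19 at chr19:41860215-41860274 on the plus strand and RPS28 at chr19:8321456-8321515 on the plus strand. For contrast, the same windows of the paralogs RPL10L (chr14:46651762-46651821, minus strand) and RPS27L (chr15:63157458-63157517, minus strand) follow.
RPLP1: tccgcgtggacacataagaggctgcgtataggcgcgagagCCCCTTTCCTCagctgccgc
RPS19: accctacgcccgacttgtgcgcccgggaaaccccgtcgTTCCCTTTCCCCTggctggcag
RPS28: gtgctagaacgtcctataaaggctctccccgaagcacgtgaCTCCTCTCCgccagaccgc
RPL10L: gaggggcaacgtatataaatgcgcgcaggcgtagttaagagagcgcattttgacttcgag
RPS27L: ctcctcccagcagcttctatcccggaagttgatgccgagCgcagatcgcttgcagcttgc

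The run was 11 bases long in RPLP1, 13 in RPS19 and 9 in RPS28, whereas it was 0 bases in RPL10L and 1 in RPS27L. A run of at least 6 bases was present in 45 of the 62 core cytosolic genes that have an entry in the promoter table (72.6%, median run 11 bases). It was present in 9 of 69 mitochondrial subunit genes (13.0%, median 2 bases), in 3 of 8 paralogs and in 15.5% of all 14904 promoters of protein-coding genes (median 2 bases). Such a run was also present in 42 of the 59 core genes that were not listed. Of the listed mitochondrial subunit genes with an entry, MRPL53 (7 bases) and MRPS27 (8 bases) had a run of 6 or more, 2 of 8 in all. RPL3L had no entry. These are letters at an annotated start, and a run is not evidence that translation of the gene was controlled in these cells.

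**Figure D2:**
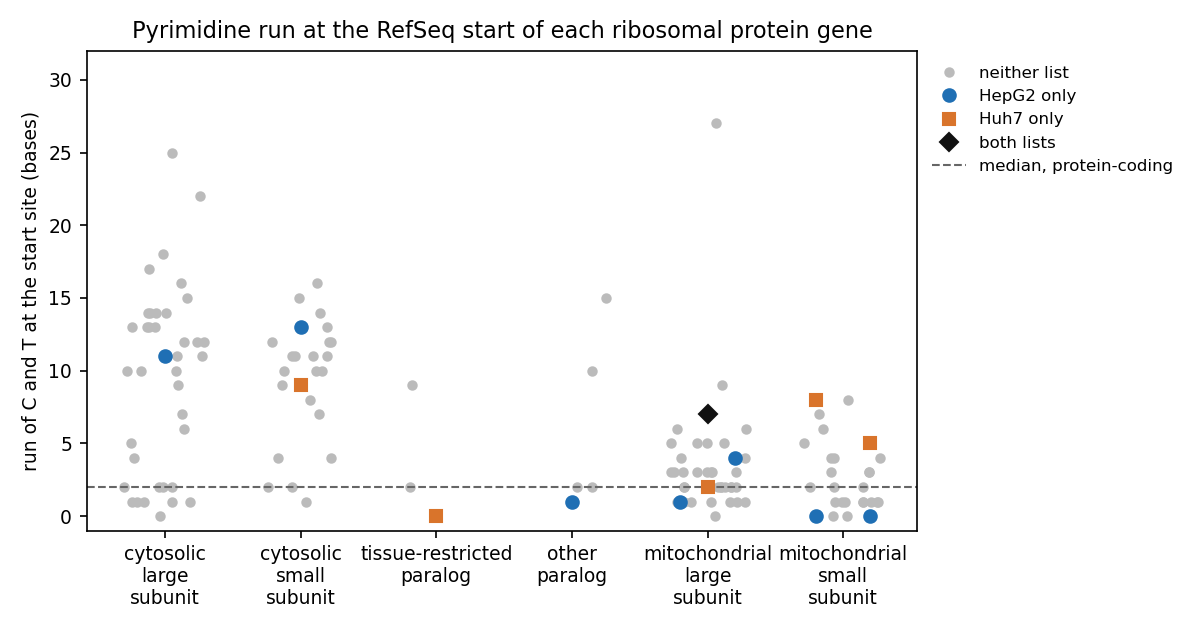
Each point is a gene, placed by the length in bases of the run of C and T at its RefSeq start, and the dashed line is the median of 2 bases over promoters of protein-coding genes. Core cytosolic genes lie mostly near 10 or above, including the 3 that were listed, while the listed paralogs lie at 0 and 1.

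Among the 10 paralogs, 2 were listed in HepG2 and 2 in Huh7 (20% each, interval 5.67 to 51.0%), with RPL3L in both. The class called tissue-restricted held 5 paralogs, including RPS4Y1 and RPS4Y2 of the Y chromosome, and tissue expression was not measured here. Of these 5, RPL3L was listed in HepG2, and RPL3L and RPL10L were listed in Huh7. RPL3L replaces RPL3 in heart and skeletal muscle, and RPL10L replaces RPL10 in male germ cells. Without levels, it cannot be told whether the listing of RPL3L and RPL10L rests on very low values. RPL39L, RPS4Y1 and RPS4Y2 were in neither list. Of the other 5 paralogs, RPS27L, a p53-inducible relative of RPS27, was listed in HepG2, and RPL7L1, RPL22L1, RPL26L1 and RPL36AL were in neither list. Neither the 3 listed paralogs' partners (RPL3, RPL10 and RPS27) nor the partners of the other paralogs (RPL39, RPS4X, RPL7, RPL22, RPL26 and RPL36A) were listed in either cell line. With classes of 5 genes, the share listed cannot be told from the 23.9% or the 21.9% of all genes.

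A paralog and its partner have related coding sequences. The first 90 coding bases of each listed paralog and of its partner are therefore shown, to let the 2 be told apart. They come from the GENCODE transcripts with the most identical bases, and capitals mark the bases that differ within each pair. RPL3L lies at chr16:1943974-1957606 (GRCh38, minus strand), RPL10L at chr14:46651010-46651821 (minus strand) and RPS27L at chr15:63125872-63158021 (minus strand).
RPL3L: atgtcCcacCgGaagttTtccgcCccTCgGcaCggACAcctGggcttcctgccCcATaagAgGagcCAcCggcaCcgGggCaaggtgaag
RPL3: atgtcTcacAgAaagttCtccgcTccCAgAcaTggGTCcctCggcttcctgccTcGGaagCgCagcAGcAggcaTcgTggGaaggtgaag
RPL10L: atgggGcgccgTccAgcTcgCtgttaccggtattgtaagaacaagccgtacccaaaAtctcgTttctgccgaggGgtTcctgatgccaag
RPL10: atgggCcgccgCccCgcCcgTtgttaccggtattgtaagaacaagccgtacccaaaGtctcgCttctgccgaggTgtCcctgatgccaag
RPS27L: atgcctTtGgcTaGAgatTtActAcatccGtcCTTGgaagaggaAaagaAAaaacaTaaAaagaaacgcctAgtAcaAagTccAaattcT
RPS27: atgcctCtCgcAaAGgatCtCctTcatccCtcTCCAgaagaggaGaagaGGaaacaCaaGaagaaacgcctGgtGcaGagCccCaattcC

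Within these stretches, 24 bases differ between RPL3L and RPL3, 9 between RPL10L and RPL10 and 24 between RPS27L and RPS27. Over the whole aligned coding sequence, identity was 76.1% for RPL3L (1199 bases), 89.3% for RPL10L (642 bases) and 77.8% for RPS27L (252 bases). The longest stretch of identical bases was 26, 50 and 20 bases. No stretch of 75 bases, counted over all transcripts of a gene, was shared between any of the 10 paralogs and its partner. The closest pair was RPL39L and RPL39, with 94.8% identity and a longest identical stretch of 44 bases, and RPL7L1 was the most distant from its partner RPL7, at 54.7%. RPL3L, RPL10L and RPS27L also shared no 75-base stretch with any other annotated gene.

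The share of mitochondrial subunit genes listed lay above that of core cytosolic genes and below that of protein-coding genes as a whole in both cell lines. In HepG2, 8 of 78 were listed (10.3%, interval 5.29 to 19.0%), against 23.9% of all genes. They were MRPL1, MRPL10, MRPL15, MRPL16, MRPL35 and MRPL53 of the large subunit (6 of 49) and MRPS2 and MRPS34 of the small subunit (2 of 29). MRPL10 is the protein at the base of the mitochondrial stalk, and MRPS34 is a small subunit protein found in mitochondrial ribosomes and not in bacterial ones.

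In Huh7, 6 of 78 mitochondrial subunit genes were listed (7.69%, interval 3.57 to 15.8%), against 21.9% of all genes. They were MRPL23, MRPL42 and MRPL53 (3 of 49) and MRPS27, MRPS28 and MRPS35 (3 of 29). MRPS27 belongs to the pentatricopeptide repeat proteins, a family that binds RNA. MRPL53 was the one mitochondrial subunit gene listed in both cell lines. The Wilson intervals of the core cytosolic and the mitochondrial class overlapped in both cell lines, and the difference between the classes was not tested, since the listing had served to choose the genes named.

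Among other families whose products form large complexes, the proteasome subunits had 3 of 48 genes listed in HepG2 (6.25%) and 2 of 48 in Huh7 (4.17%), and the subunits of the respiratory chain and ATP synthase 5 of 85 (5.88%) and 3 of 85 (3.53%). These families were picked after the ribosomal counts were known. The shares of the ribosomal protein genes, 7.27% and 5.45%, lay close to these. All of these shares lay below the 23.9% and 21.9% of all protein-coding genes listed in HepG2 and Huh7.

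Subunit genes are short, and calls made on fragment counts depend on length. The median longest transcript was 1171 bases for core cytosolic genes, 1058.5 for paralogs and 1516 for mitochondrial subunit genes, against 2935 for protein-coding genes. Of the 165 genes, 102 fell in the shortest of 5 equal length classes of protein-coding genes, with transcripts of 81 to 1596 bases. In this class, 18.2% of all protein-coding genes were listed in HepG2 and 17.2% in Huh7, against 6 and 5 of the 102 ribosomal protein genes. In the next length class the shares of all genes were 24.5% and 23.5%, against 4 and 2 of 36. The share of all genes listed was thus lowest in the shortest length class, and the share of ribosomal protein genes lay below it there. The listed ribosomal protein genes had a median of 1490 bases and the others 1357.

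**Figure D3:**
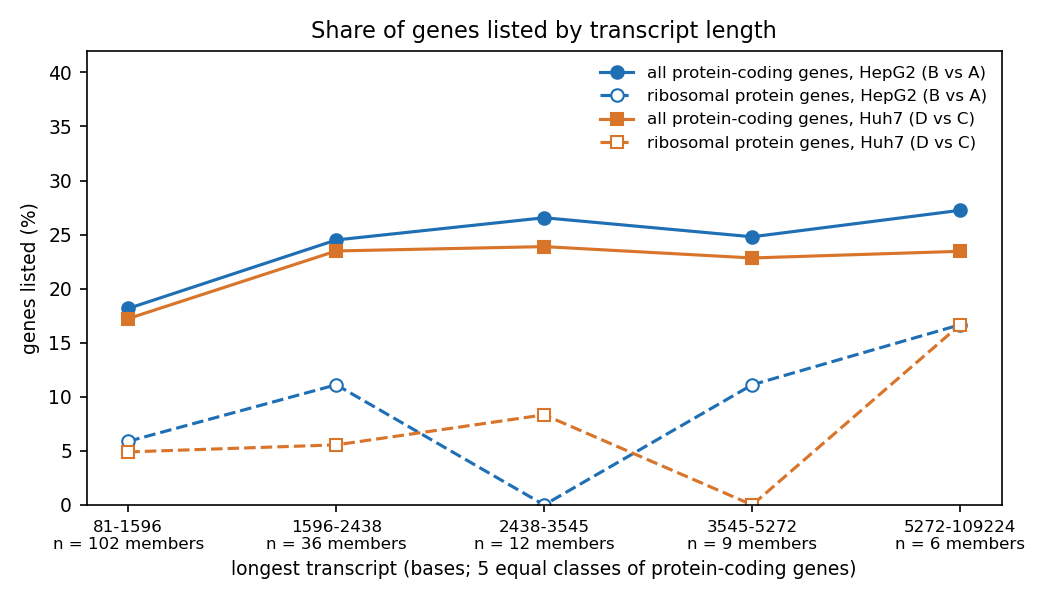
Protein-coding genes were divided into 5 equal classes by the length of their longest transcript in bases, and the percent listed is given for all genes (filled points) and for ribosomal protein genes (open points), with their number under the axis. In the class of shortest genes, the lines for all genes stand at 18.2% and 17.2%, and the 102 ribosomal protein genes lie below both, while the 3 classes of longest genes hold 12, 9 and 6 ribosomal protein genes.

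Core ribosomal protein genes have many processed pseudogenes, so that reads can match more than one place in the genome. The share of 75-base transcript stretches that no other annotated gene carries had a median of 91.3% in core cytosolic genes, from 36.5% in RPS27 to 100%. It was 100% at the median in mitochondrial subunit genes, from 30.7% in MRPS24. The median number of annotated pseudogenes named after a gene was 10 in core cytosolic genes, up to 91 for RPL23A, and 0 in mitochondrial subunit genes. Of the 3 listed core genes, RPS19 was unique over its whole length, RPLP1 over 97.7% and RPS28 over 89.1%, where 3 processed pseudogenes carry parts of it. RPLP1 and RPS19 had 4 named pseudogenes each and RPS28 had 3. Small nucleolar RNAs, which guide the modification of ribosomal RNA, are annotated within 28 of the 77 core cytosolic genes and within none of these 3. The 19 listed genes had a median of 100% and the other 146 of 98.0%.

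Among the listed mitochondrial subunit genes, MRPL53 shared 534 of its 1159 stretches with CCDC142, a neighbouring gene that uses 2 of its exons (53.9% unique), and MRPS28 shared 506 of 2094 with an overlapping gene model (75.8% unique). The listing of these 2 genes and of RPS28 is uncertain, since the reads of shared stretches could have been assigned to either gene. CCDC142 itself was in neither list. How the shared reads were divided is not given in the sources used here, and its part in the listing was not tested.

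**Figure D4:**
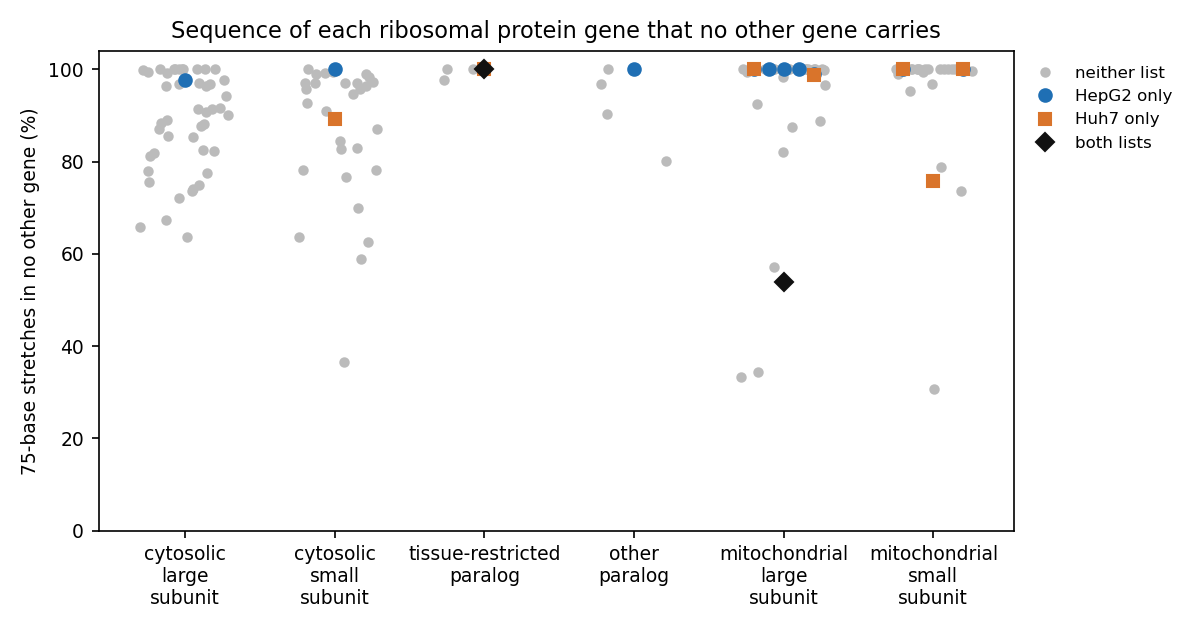
Each point is a gene, placed by the percent of its 75-base transcript stretches that no other annotated gene carries. Most listed genes (coloured points, some of which overlap at 100%) lie at or near 100%, with MRPL53 at 53.9%, MRPS28 at 75.8% and RPS28 at 89.1%, and core cytosolic genes reach down to 36.5%.

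The reverse case also occurred, where another gene model carrying exons of a subunit gene was listed and the subunit gene was not. In the annotation, 18 other protein-coding genes have at least 1 exon identical to an exon of a ribosomal protein gene, and they touch 17 of the 165. Of the 18, 5 were listed in HepG2 (27.8%, against 23.9% of all genes) and 4 in Huh7 (22.2%, against 21.9%), shares close to the background. RPL17-C18orf32 and RPS10-NUDT3, readthrough genes that join RPL17 or RPS10 to the next gene, were listed in HepG2, and RPL36A-HNRNPH2 was listed in Huh7. Another 3 gene models were listed in both cell lines, among them those that carry exons of MRPS17 and RPS15A. In none of these 6 cases was the subunit gene itself listed.

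These gene models matter for the GO and KEGG counts. Under structural constituent of ribosome, 17 genes were listed in HepG2, of which 11 were ribosomal protein genes of the 165, 5 were such gene models and 1 was RSL24D1, an assembly factor of the large subunit. In Huh7, 12 were listed, of which 6 were ribosomal protein genes, 4 were such gene models and 2 were others. Given over the background genes of the term, the shares were 8.67% and 6.12% of 196, against 21.6% and 19.7% of all genes in the GO tables.

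The KEGG pathway Ribosome held 14 listed genes of 134 in HepG2 (10.4%) and 4 of 134 in Huh7 (2.99%). In HepG2, 10 of the 14 were ribosomal protein genes: RPLP1, RPS19, RPL3L, RPS27L, MRPL1, MRPL10, MRPL15, MRPL16, MRPL35 and MRPS2. In Huh7, 3 of the 4 were RPS28, RPL3L and RPL10L, and the other was the gene model that carries an exon of MRPS17, a mitochondrial subunit gene. The 2 KEGG tables as a whole listed 8.46% and 8.19% of protein-coding genes, most of which stand in no pathway, so these shares and those of a pathway have different denominators and are not compared. The pathway Ribosome biogenesis in eukaryotes held 8 of 84 and 6 of 84 listed genes (9.52% and 7.14%), and none of these was a ribosomal protein gene.

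Most other GO terms of the ribosome and of translation also lay below the share of all listed genes. Translation had 93 of 773 genes listed in HepG2 and 85 of 773 in Huh7 (12.0% and 11%). Translational initiation had 12 and 8 of 208 (5.77% and 3.85%), and nonsense-mediated decay, a term in which many core subunits stand, had 5 and 4 of 140 (3.57% and 2.86%). Among the 2386 GO terms with at least 100 background genes and any listed gene, nonsense-mediated decay ranked 11 from the lowest share in HepG2 and 4 from the lowest in Huh7, a ranking made after the values had been seen. Targeting of proteins to the membrane by the signal recognition particle (SRP) had 4 and 5 of 106 (3.77% and 4.72%). Mitochondrial translation had 14 and 11 of 143 (9.79% and 7.69%). Viral transcription was the exception in HepG2, with 14 of 62 there and 10 of 62 in Huh7 (22.6% and 16.1%), and none of its listed genes was a ribosomal protein gene. Listed subunit genes stand under several of these terms at once, so the terms are not separate observations.

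**Figure D5:**
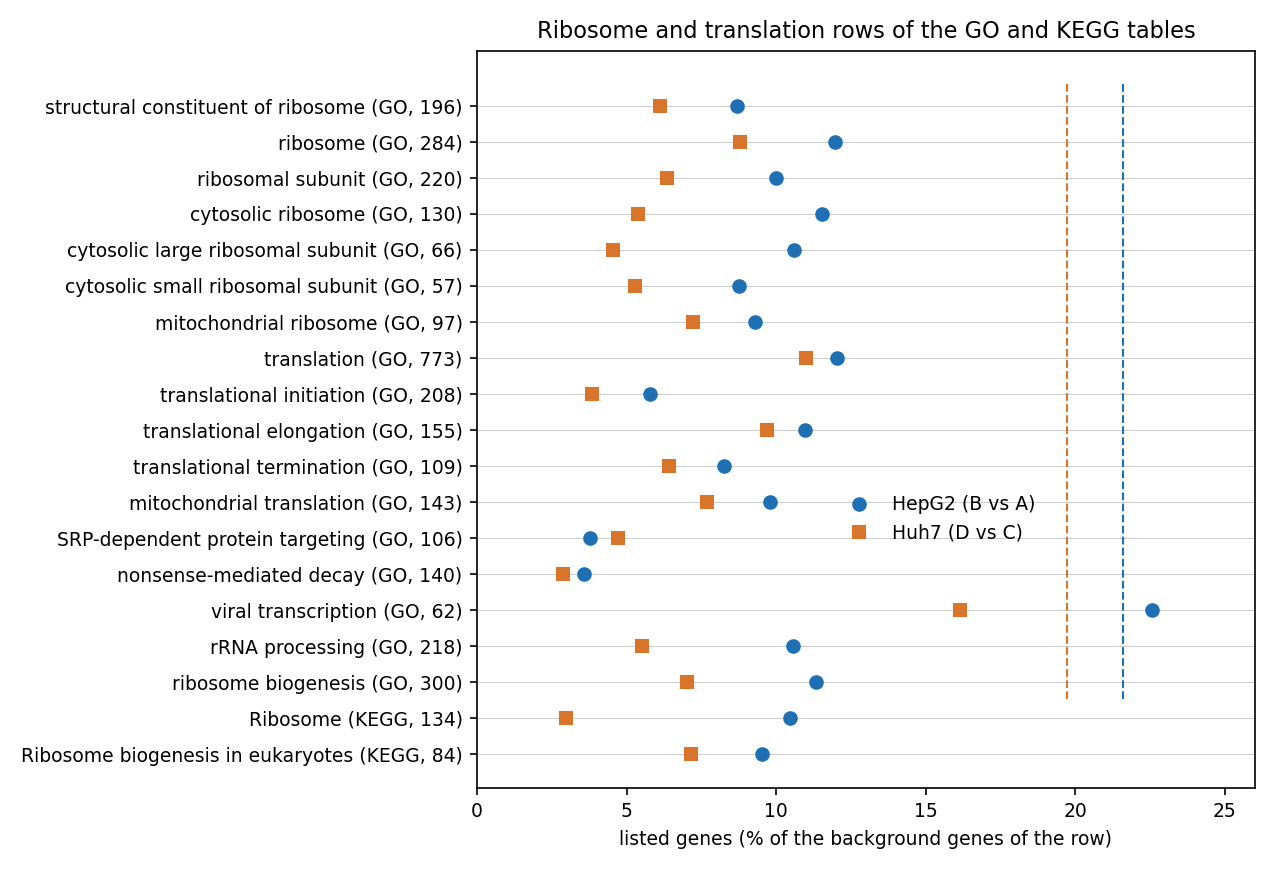
The percent of the background genes of each GO term or KEGG pathway that were listed is plotted for HepG2 and Huh7, with the size of the background in brackets, and dashed lines mark the 21.6% and 19.7% of all genes in the GO tables. The lines apply to the GO terms, whose points lie below both lines except viral transcription in HepG2, and nonsense-mediated decay lies lowest of the GO terms in both cell lines (3.57% and 2.86%).

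The genes that work with the ribosome were counted in lists drawn up by function. None of 8 further subunits that bear other names (such as FAU, RACK1 and DAP3) was listed in either cell line. Of 55 genes of ribosomal RNA synthesis and ribosome assembly, 7 were listed in HepG2 (12.7%, interval 6.30 to 24.0%, which includes the 23.9% of all genes), namely POLR1B, a core subunit of RNA polymerase I, UBTF, its upstream binding factor, and NOP10, NOP2, UTP15, UTP20 and RRP12, which process or modify ribosomal RNA or carry pre-ribosomes. In Huh7, RRP12 was the single one listed (1.82%, interval 0.322 to 9.61%, against 21.9%). The difference between the cell lines was not tested.

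Of 42 cytosolic translation factors, 3 were listed in HepG2 (7.14%, interval 2.46 to 19.0%, against 23.9% of all genes) and 4 in Huh7 (9.52%, interval 3.77 to 22.1%, which includes the 21.9% of all genes). EIF1, which selects the start codon, and EIF4EBP1, the mTOR target that blocks the cap-binding protein, were listed in both, with EIF5 added in HepG2, and with EIF4B and the elongation factor EEF2 added in Huh7. Of 42 factors of mitochondrial translation, 5 were listed in HepG2 (11.9%, interval 5.19 to 25.0%) and 4 in Huh7 (9.52%, interval 3.77 to 22.1%), and both intervals include the share of all genes. They held the aminoacyl-tRNA synthetase SARS2 and the ribosomal RNA methyltransferase MRM2 in both cell lines. TSFM and MTRFR, an elongation factor and a rescue factor of mitochondrial translation, were listed in HepG2, and GUF1, a mitochondrial GTPase, in Huh7.

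The list of ribosomal protein S6 kinases, mTOR pathway genes and MYC genes had 6 of 22 listed in HepG2 (27.3%, interval 13.2 to 48.2%, against 23.9% of all genes) and 7 of 22 in Huh7 (31.8%, interval 16.4 to 52.7%, against 21.9%). AKT1S1 and TSC1, which restrain mTOR complex 1, and MYCL were listed in both. HepG2 added RPS6KA4, RPS6KL1 and MYC, and Huh7 added RPS6KA2, RPS6KA3, RPS6KC1 and MYCN. MTOR itself, RPS6KB1 and LARP1, the protein that binds the 5′ terminal oligopyrimidine motif, were in neither list.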

How the data were processed

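RNA-seq of 4 libraries (3 μg of RNA each per the labels, ribosomal RNA removed, strand-specific kit) was processed by the authors, whose notes name HISAT2, Bowtie2 2.2.8, StringTie 1.3.1 and Cuffdiff 2.1.1. The genome build is not given in the sources used here. The authors called genes at an adjusted p-value under 0.05, for which their methods name Cuffdiff and their results edgeR, and tested GO terms with GOseq and KEGG pathways with KOBAS. The deposited tables hold numbers and identifiers of listed and background genes, which are counts of genes and not of reads, and p-values of terms, which were not used.

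The list of a comparison was the union of identifiers over its GO terms, with 4783 genes in B vs A and 4369 in D vs C. Of these, 4768 and 4360 had an Ensembl identifier and were protein-coding in GENCODE release 29 (GRCh38). The members and lists were chosen with earlier results of these data known. All listed subunit genes and all paralogs are named, and unlisted core subunits only as partners or extremes. Shared stretches were sought over all GENCODE transcripts in their sequence as written, and not in the reverse complement. Starts came from RefSeq (GRCh38.p14), where 139 of 165 genes had an entry. Wilson intervals at 95% used SciPy 1.17.1, and alignments Biopython 1.88. Alternatives were the KEGG list, other member rules, backgrounds, stretch lengths and transcript lengths. The scripts were tested on simulated data.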

Additional observations from a re-analysis of the deposited data

How the results depend on the processing

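The number of ribosomal protein genes listed was 12 in HepG2 and 9 in Huh7 whether the GO table or both tables gave the list, and also when symbols came from another table or when subunits under other names were added. With the KEGG tables alone, it was 10 in HepG2 but 3 in Huh7, and the number in both cell lines was 1. Without the paralogs, the numbers were 10 and 7, with 1 in both. The share of mitochondrial subunit genes listed in Huh7 was 7.69% by GO and 0 by KEGG, so the Huh7 counts rest on the GO table. Divided by the share of all protein-coding genes listed in HepG2, the share of cytosolic subunit genes including paralogs was 0.192 and that of mitochondrial subunit genes 0.429. With KEGG lists for members and background, these ratios were 0.544 and 0.910 in HepG2, and in Huh7 the cytosolic ratio was 0.421 against 0.158 and the mitochondrial ratio 0 against 0.352. KEGG listed 8.46% and 8.19% of protein-coding genes, since it places fewer genes in pathways and most protein-coding genes stand in none. The KEGG ratios therefore cannot be set against the GO ratios, and 0.910 cannot be read as a share near that of all genes. With the other backgrounds, the cytosolic ratio stayed between 0.156 and 0.213 and the mitochondrial ratio between 0.348 and 0.475 over both cell lines. With the median transcript in place of the longest, listed and other genes had 920 and 792.5 bases. No paired analysis was possible because the tables hold no value per library, and with 1 library per group none could be left out.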

Other observations

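Under the GO term ribosome, 22 of the 34 listed genes in HepG2 and 16 of the 25 in Huh7 were outside the 165 genes. Without the gene models that carry exons of ribosomal protein genes, 17 and 12 remained, of which 7 were listed in both cell lines. For all listed protein-coding genes, the share listed in both was 47.7% of the HepG2 list and 52.2% of the Huh7 list. The 7 of 17 and 7 of 12 lay near these shares, so the overlap is not particular to these genes. The 7 genes included HBA1 and HBA2, the alpha globin genes, and RBM3, a cold-inducible RNA-binding protein. In HepG2, EIF2AK2 and EIF2AK3, kinases that phosphorylate the initiation factor eIF2 in answer to double-stranded RNA or to unfolded proteins in the endoplasmic reticulum, were also listed under this term.

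Under translational initiation, 10 of the 12 listed genes in HepG2 and 7 of the 8 in Huh7 were no ribosomal protein genes, and 4 of them were listed in both cell lines. Among all listed protein-coding genes, 47.7% of those in HepG2 and 52.2% of those in Huh7 were listed in both. The 4 of 10 and 4 of 7 lay near these shares, so the overlap is not particular to these genes. The 4 genes were EIF1, EIF4EBP1, ATF4, the transcription factor translated when eIF2 is phosphorylated, and PPP1R15A, the phosphatase subunit that reverses this phosphorylation. The tables give no direction for them, and these terms were singled out after their genes had been seen.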
